A study of Mus musculus with 6 samples.

Results

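The respiratory chain and ATP synthase genes form the machinery of oxidative phosphorylation, and 93 of the 19937 genes named on the array belong to the set described here. A gene was taken when its probe set was paired with a single symbol starting with Nduf, Sdha, Sdhb, Sdhc, Sdhd, Uqcr, Cox4, Cox5, Cox6, Cox7, Cox8 or Atp5. The rule used names only, found 118 probe sets, and let the brightest probe set stand for each gene. The 93 genes were divided into 34 subunits of complex I, 4 of complex II, 8 of complex III, 11 of complex IV, 17 of the ATP synthase, 11 assembly factors and 8 tissue-restricted isoforms. Ndufa4 was counted with complex IV, to which its protein is now assigned, and so was Cox7a2l, which is described as linking complexes into larger assemblies. Ndufa4l2, a hypoxia-inducible relative of Ndufa4, was counted with the tissue-restricted isoforms.

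In the inner mitochondrial membrane, complex I takes electrons from NADH and complex II takes them from succinate. Both pass them to coenzyme Q, from which complex III hands them to cytochrome c, and complex IV finally transfers them to oxygen. Complexes I, III and IV pump protons across the membrane, and the ATP synthase makes ATP as the protons flow back. Most subunits are encoded in the nucleus, a core few in mitochondrial DNA, and developing B cells use this pathway together with glycolysis while they proliferate.

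Expression was measured by microarray in 6 samples of mouse pro-B cells (strain C57/BL6) transformed with v-Abl, a viral tyrosine kinase oncogene that holds B cell precursors at the pro-B stage. All carried the genotype Foxo1f/f; ERCre, that is, loxP-flanked alleles of the forkhead transcription factor gene Foxo1 and a Cre recombinase that tamoxifen activates. The tamoxifen group held 3 samples grown with 1 µM tamoxifen for 2 days, and the untreated group held 3 samples grown without it. Cells with intact Foxo1 under tamoxifen were not analysed here, so the loss of Foxo1, Cre activity and the drug itself cannot be told apart. Whether the 3 samples of a group were separate cultures is not stated in the labels, and every p-value below therefore reflects the spread between samples that may be technical replicates. Fewer cells expressing a gene and less RNA per cell cannot be told apart in such samples either.

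The labels were checked first. Foxo1 had intensities of 116, 151 and 134 in the tamoxifen samples, against 806, 624 and 512 in the untreated samples, given here and below in the order of samples 1, 2 and 3. Every tamoxifen sample was below every untreated sample, the limma adjusted p was 0.0178 and the log2 fold change -2.13 ± 0.15 (SE). The Foxo1 call was lost under 8 of 16 alternatives, with limma adjusted p-values of 0.0936 with the replicate number as a block, 0.107 without both samples numbered 1, 0.05003 with arrays scaled to a common median, and 0.0276 to 0.156 with each array left out, where it held only without untreated sample 1. Its fold change stayed between -2.26 and -1.83 in all of them. Of 12 pro-B cell markers, 11 were measured and 9 lay at or above the median of probe set means (106), among them Pax5, Ebf1, Cd79a, Cd79b, Igll1 and Vpreb1. Rag1 and Rag2, the recombinase genes, were below that median. None of the 11 passed limma's threshold, although 7 had an unadjusted limma p under 0.05, beside 5.11% of all probe sets. Their log2 fold changes, tamoxifen minus untreated, ran from -1.26 to 0.52. Of the 11, 5 were higher and 2 lower in every tamoxifen sample (63.6%, beside 11.2% of all genes), so these markers were not alike in the groups. Of 23 measured markers of T, myeloid, erythroid and stromal cells, 4 reached the median and none exceeded 236 in any sample. Their part in the results was not tested. The array medians were 101, 107 and 107 in the tamoxifen samples and 104, 105 and 109 in the untreated samples, and precision is limited by having 3 arrays per group.

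The respiratory chain genes differed more between samples of one group than between the groups. Tamoxifen sample 1 and untreated sample 1 each stood above the other samples of their group for most of these genes. Each gene's normalised log2 value was expressed as its deviation from the gene's own mean over the 6 arrays. The median deviation of the 93 genes was 0.094, -0.083 and -0.067 in the tamoxifen samples, against 0.15, -0.044 and -0.055 in the untreated samples. For all 19937 genes the same medians were -0.010, -0.00728 and 0.00414 in the tamoxifen samples, against 0.033, -0.028 and 0.00583 in the untreated samples. The respiratory chain genes therefore stood higher in both samples numbered 1 by more than the array as a whole. Averaged over samples, their median deviation was -0.019 ± 0.098 in tamoxifen samples and 0.016 ± 0.11 in untreated samples (SD, n = 3 each). The distance between the groups was smaller than either spread, and both spreads include the height of sample 1 that the groups share. Between samples of the same number, the tamoxifen minus untreated differences of these medians were -0.052, -0.038 and -0.013 for numbers 1, 2 and 3, although the labels do not say that a number pairs samples. The treatment protocol says that a portion of the cells was treated, but no label ties a number to a shared culture.

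**Figure D1:**
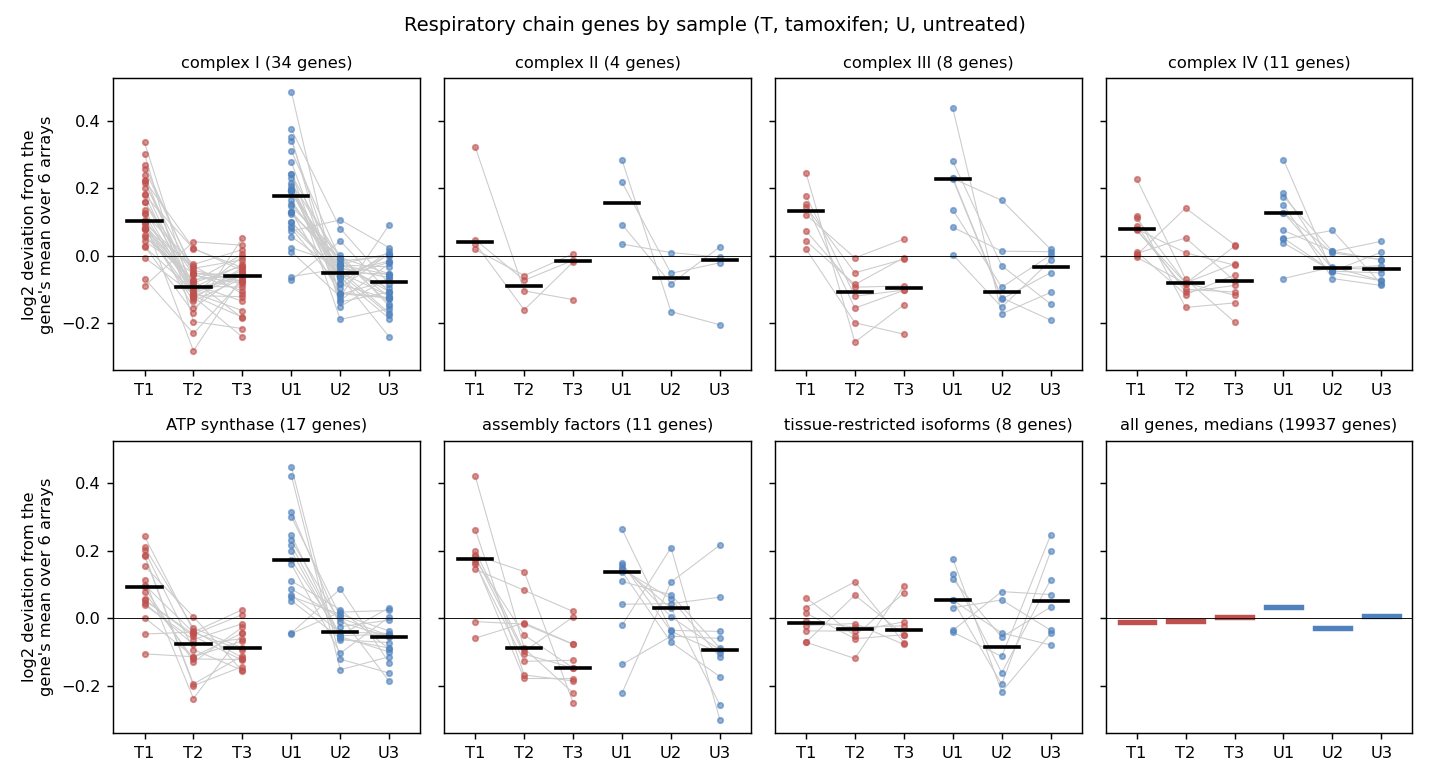
Deviation of each respiratory chain gene from its own mean over the 6 arrays (log2 scale), by complex, with tamoxifen samples T1 to T3 left of untreated samples U1 to U3. Each point is a gene, lines join a gene's values within a group, black bars are medians, and the last panel gives the medians of all 19937 genes. Median deviations of the 93 genes were 0.094, -0.083 and -0.067 in T1 to T3 and 0.15, -0.044 and -0.055 in U1 to U3.

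Sample 1 was the highest sample of both groups for 67 of 93 respiratory chain genes, or 72%, against 22% of all genes and 29.7% of the 10611 genes at or above the median of probe set means. Among the subunits of the 5 complexes the count was 59 of 74. It was 27 of 34 in complex I, 4 of 4 in complex II, 8 of 8 in complex III, 7 of 11 in complex IV and 13 of 17 in the ATP synthase. Assembly factors had 7 of 11, whereas the tissue-restricted isoforms, which are dim on this array, had 1 of 8. Tamoxifen sample 1 was the highest of its group for 78 of the 93 genes and untreated sample 1 for 77. On the deposited values, before any further normalisation, these counts were 82 and 78. The genes of the mitochondrial ribosome, which translates the mitochondrially encoded subunits, had sample 1 highest in both groups for 63 of 77 genes. Both arrays numbered 1 had the lowest median intensity of their group, as given above, and no label says what the number stands for, so the part of the array in this pattern was not tested. The pattern was noticed in these data, and no test is given for it. Because both samples stand apart, the results below were also computed without them.

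**Figure D2:**
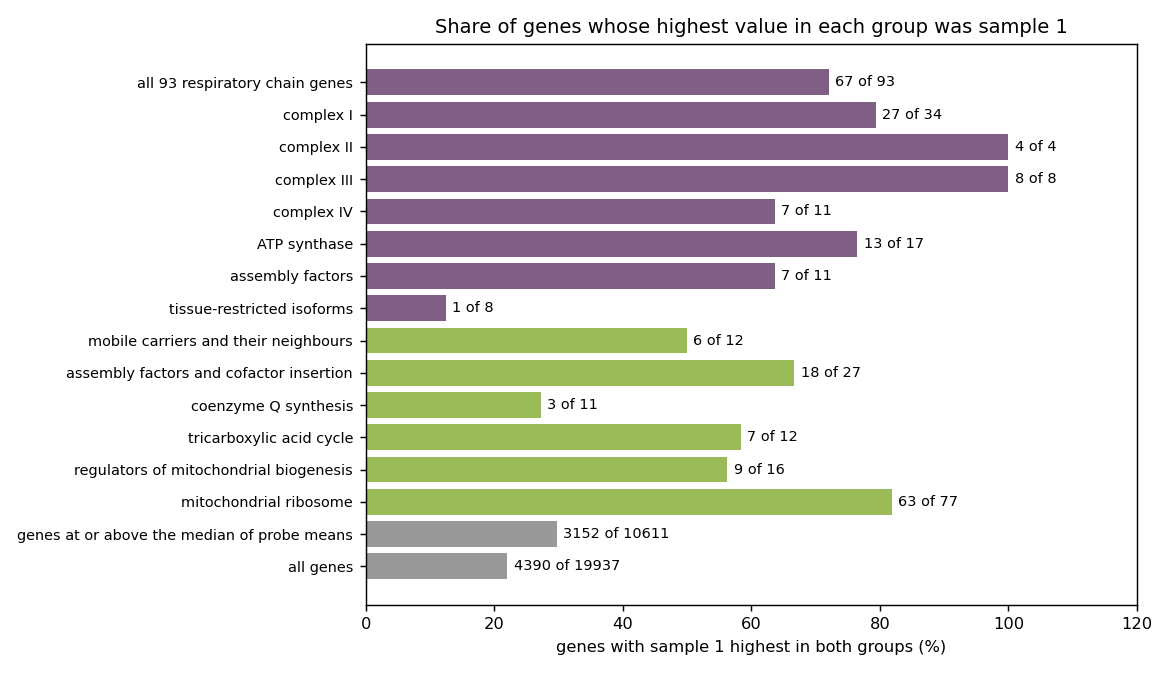
Percentage of genes for which sample 1 had the highest normalised value in both the tamoxifen and the untreated group. Purple bars are the respiratory chain genes and their divisions, green bars other mitochondrial gene lists, and grey bars the array as a whole, with the counts written beside each bar: 67 of 93 respiratory chain genes against 4390 of 19937 genes.

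Between tamoxifen and untreated samples, 0 of the 93 genes passed limma's threshold of an adjusted p of 0.05, and the lowest adjusted p was 0.859 for Uqcrq. Over the array, 20 of 34760 probe sets (0.0575%) passed. By unadjusted p under 0.05 there were 2 of 93 genes, Uqcrq and Sdhaf2, against 5.11% of all probe sets. The log2 fold change, tamoxifen minus untreated on the log2(intensity + 16) scale, was negative for 64 genes and positive for 29. Its median was -0.040, beside -0.010 for all genes, of which 11058 of 19937 were negative. The values ran from -0.27 (Uqcrq) to 0.17 (Sdhaf2).

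A p that misses the threshold does not show that levels were equal, so the intervals matter here. The 95% interval of the fold change lay within 1.5-fold in either direction for 92 of 93 genes and within 1.2-fold for 26. Over all 19937 genes these counts were 19118 and 9572. They were 9881 and 3624 of the 10611 genes at or above the median of probe set means. Among the 93 genes the exception to 1.5-fold was Ndufb7, whose interval of -0.61 to 0.29 reached furthest down. The furthest up was that of Ndufaf6 at 0.55. Tamoxifen and untreated values did not overlap for 5 of 93 genes (5.38%). The share was 9.89% of all probe sets, 11.2% of all genes and 13.4% of the 10611 genes at or above the median of probe set means. The height of sample 1 widens the range of both groups, and its part in this count was not tested. The 5 genes were Ndufv2, Cox7a2l and Sdhaf2, higher in every tamoxifen sample, and Atp5g3 and Ndufaf4, lower in every tamoxifen sample. On the deposited values, before normalisation, only Sdhaf2 and Atp5g3 kept the groups apart. Without both samples numbered 1, 0 genes passed limma's threshold, 55 of 93 fold changes were negative and their median was -0.028. With untreated sample 1 left out and tamoxifen sample 1 kept, the median was 0.030, with 29 of 93 genes negative, and with only tamoxifen sample 1 left out it was -0.085. Without untreated sample 1 the medians of complexes I, II, III, IV and the ATP synthase were likewise positive, at 0.050, 0.00285, 0.062, 0.00936 and 0.029. Without tamoxifen sample 2 they were 0.014, 0.00199, 0.00105, -0.038 and -0.0097, and without tamoxifen sample 3 that of complex I was 0.00471.

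**Figure D3:**
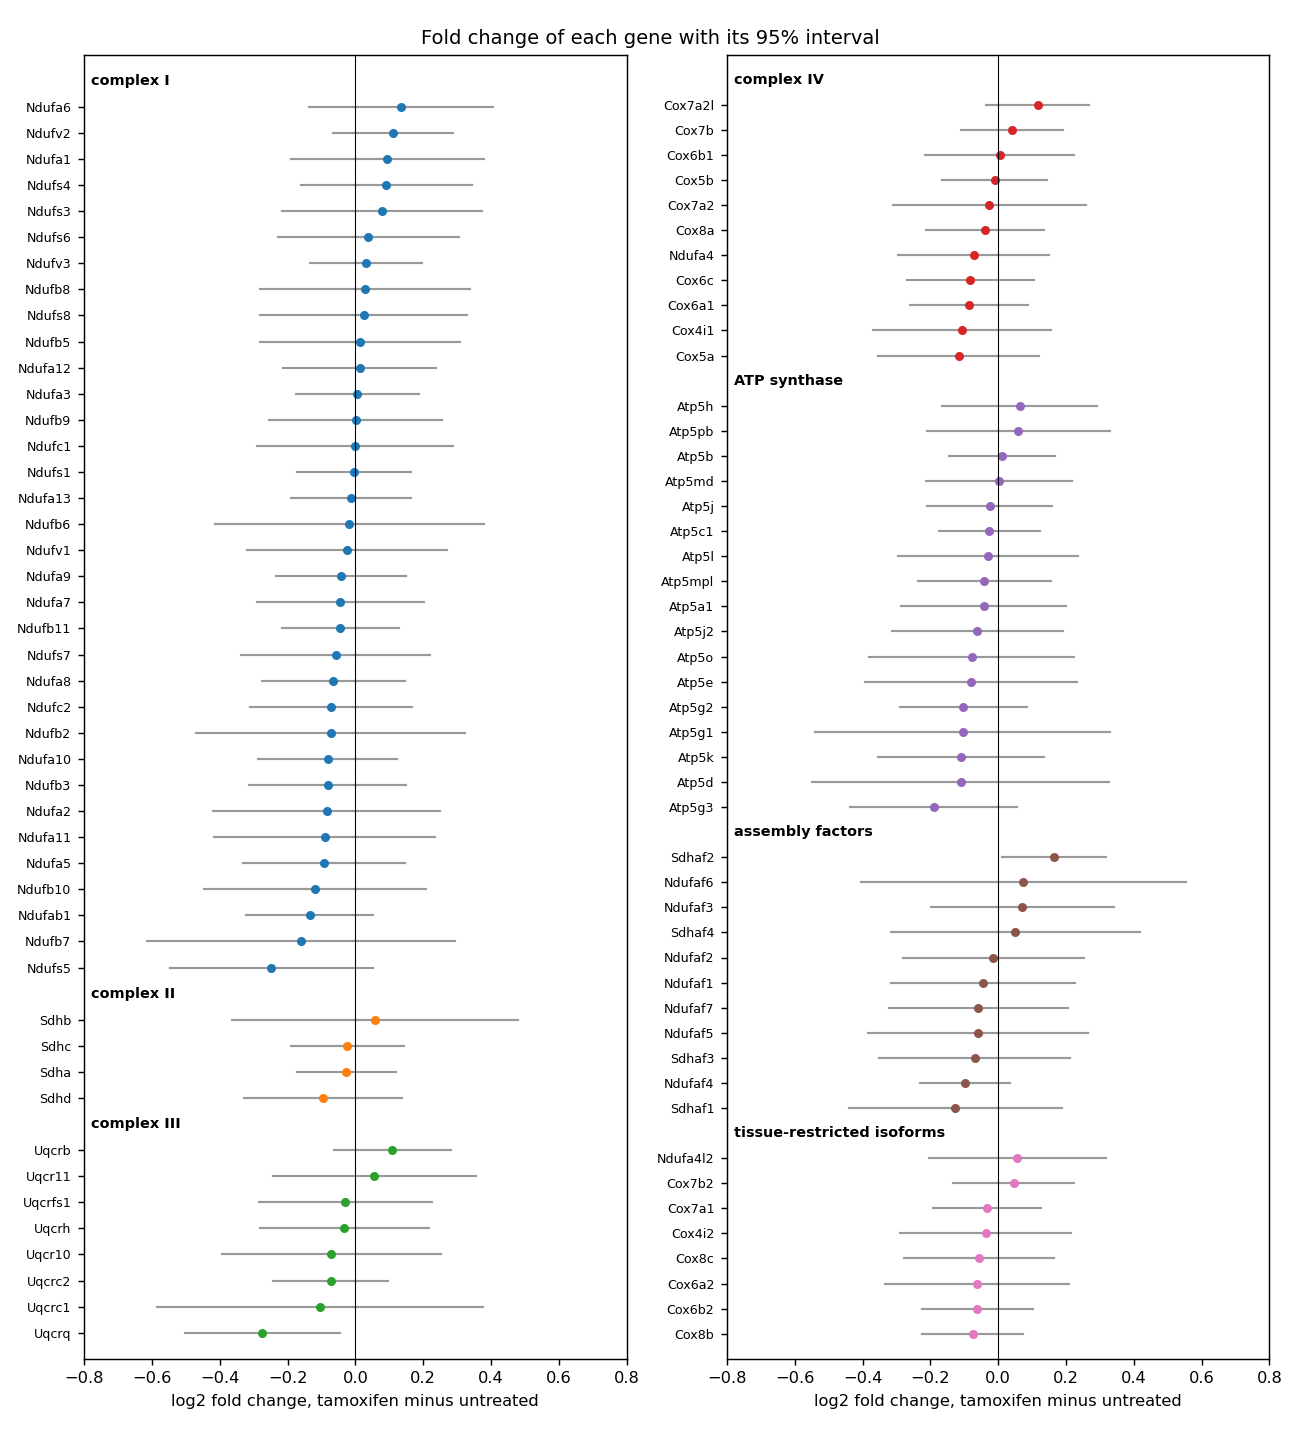
Log2 fold change of each of the 93 genes, tamoxifen minus untreated on the log2(intensity + 16) scale, ordered by value within each complex, with 95% intervals as lines. The intervals of Uqcrq and Sdhaf2 alone exclude 0, and neither passed the threshold after adjustment.

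Complex I, NADH dehydrogenase, is the largest complex, and none of its 34 nuclear subunits passed limma's threshold in either direction. Of these, 21 had a negative and 13 a positive log2 fold change, with a median of -0.022 that became 0.012 when arrays were scaled to a common median and -0.015 without both samples numbered 1. The fold changes ran from -0.25 to 0.13, and all subunits were above the median of probe set means. Core subunits hold the flavin and the iron-sulphur clusters that carry electrons. Ndufv1, which binds NADH, had intensities of 501, 402 and 423 in the tamoxifen samples, against 548, 417 and 376 in the untreated samples. Ndufs1, the largest core subunit, had 1252, 1003 and 1032 in the tamoxifen samples, against 1137, 1097 and 1022 in the untreated samples. Both were highest in sample 1 of each group, and the groups overlapped. Their log2 fold changes were -0.025 ± 0.12 (SE) for Ndufv1 and -0.00305 ± 0.070 (SE) for Ndufs1.

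Ndufv2, an iron-sulphur subunit next to Ndufv1, had intensities of 1357, 1103 and 1048 in the tamoxifen samples, against 1088, 1114 and 998 in the untreated samples. Its normalised values were higher in every tamoxifen sample, with a log2 fold change of 0.11 ± 0.074 (SE) and a 95% interval of -0.067 to 0.29, while its deposited values overlapped. Ndufs3, Ndufs7 and Ndufs8 belong to the part of the enzyme that reduces coenzyme Q. Ndufs3 had 1468, 1197 and 1228 in the tamoxifen samples, against 1519, 1135 and 1051 in the untreated samples, a log2 fold change of 0.078. For Ndufs7 the intensities were 447, 354 and 416 in the tamoxifen samples, against 494, 382 and 376 in the untreated samples, a log2 fold change of -0.058. Ndufs8 had 538, 396 and 395 in the tamoxifen samples, against 509, 411 and 369 in the untreated samples, a log2 fold change of 0.024. In all 3 the deposited values of sample 1 were highest in both groups, and the groups overlapped.

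Accessory subunits surround this core and stabilise it. Brightness below describes the signal of a probe set and does not rank the expression of different genes. The largest positive fold change in the complex was that of Ndufa6, a small subunit of the LYR protein family, at 0.13 ± 0.11 (SE), with intensities of 304, 247 and 237 in the tamoxifen samples, against 265, 239.8 and 202 in the untreated samples. Ndufs5 had the most negative, at -0.25 ± 0.12 (SE) with a 95% interval of -0.55 to 0.052. Its intensities were 1443, 1173 and 1304 in the tamoxifen samples, against 1911, 1528 and 1257 in the untreated samples, so that untreated sample 1 was the highest and untreated sample 3 lay within the tamoxifen range. Ndufb7, of the membrane arm, had 978, 682 and 793 in the tamoxifen samples, against 1236, 798 and 738 in the untreated samples, and a log2 fold change of -0.16 ± 0.19 (SE). Without untreated sample 1 its fold change was 0.043. Ndufb11, the brightest probe set of the complex, had 3638, 3156 and 3130.0 in the tamoxifen samples, against 3643, 3318 and 3128 in the untreated samples, and a log2 fold change of -0.045 ± 0.072 (SE).

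Complex II, succinate dehydrogenase, is the one complex that is also an enzyme of the tricarboxylic acid cycle, and all of its subunits are nuclear. None of the 4 passed limma's threshold, and 3 of 4 had negative log2 fold changes, with a median of -0.025 that became 0.00353 when arrays were scaled to a common median. Sdha, the flavoprotein that oxidises succinate, had intensities of 1865, 1579 and 1634 in the tamoxifen samples, against 1799, 1744 and 1606 in the untreated samples. Its means were 1692 ± 152 in tamoxifen samples and 1716 ± 99.5 in untreated samples (SD, n = 3 each). The log2 fold change was -0.026 ± 0.060 (SE), with a 95% interval of -0.17 to 0.12, and the groups overlapped. Sdhb, the iron-sulphur subunit, had 1139, 773 and 752 in the tamoxifen samples, against 1063, 784 and 689 in the untreated samples, and a log2 fold change of 0.058 ± 0.18 (SE). Sample 1 stood far above the other samples of its group, and the groups overlapped. Its fold change was -0.088 without tamoxifen sample 1.

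Sdhc and Sdhd anchor the enzyme in the membrane and bind coenzyme Q. Sdhc had 754, 653 and 681 in the tamoxifen samples, against 761, 673 and 659 in the untreated samples, a log2 fold change of -0.023 ± 0.069 (SE). Sdhd had 478, 379 and 419 in the tamoxifen samples, against 518, 429.9 and 399 in the untreated samples, a log2 fold change of -0.096 ± 0.097 (SE). In both genes sample 1 was on top in each group, as in Sdha and Sdhb, and the groups overlapped.

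Complex III, the cytochrome bc1 complex, was represented by 8 subunits, none past limma's threshold, with 6 negative log2 fold changes and a median of -0.051. All 8 had their highest value in sample 1 of both groups, and without both of these samples the median was -0.051. With each array left out in turn the median ranged from -0.13 without tamoxifen sample 1 to 0.062 without untreated sample 1. Uqcrq, a small subunit that contacts cytochrome b, had the most negative fold change of all 93 genes. Its intensities were 641, 501 and 488 in the tamoxifen samples, against 714, 682 and 559 in the untreated samples. Tamoxifen samples 2 and 3 were below every untreated sample, while tamoxifen sample 1 lay above untreated sample 3. The log2 fold change was -0.27 ± 0.095 (SE), with a 95% interval of -0.50 to -0.046, an unadjusted p of 0.026 and a limma adjusted p of 0.859. Leaving out each sample in turn gave fold changes from -0.35 to -0.23.

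Uqcrfs1, the Rieske iron-sulphur protein that moves between cytochrome b and cytochrome c1, had 810.0, 598 and 605 in the tamoxifen samples, against 754, 645 and 621 in the untreated samples. Its log2 fold change was -0.030 ± 0.11 (SE). The core proteins Uqcrc1 and Uqcrc2 face the matrix and resemble the processing peptidase that trims imported proteins. Uqcrc1 had 534, 343 and 374 in the tamoxifen samples, against 585, 382 and 364 in the untreated samples, a log2 fold change of -0.10 ± 0.20 (SE). Uqcrc2 had 1950.0, 1596 and 1589.8 in the tamoxifen samples, against 1921, 1792 and 1665 in the untreated samples, a log2 fold change of -0.073 ± 0.071 (SE). The spread of Uqcrc1 within a group was larger than its difference between groups, and without untreated sample 1 its fold change was 0.088. Uqcrb, which contacts cytochrome b, had 2176, 1829 and 1890.5 in the tamoxifen samples, against 1962, 1728 and 1773 in the untreated samples, and the most positive fold change of the complex, 0.11 ± 0.072 (SE). Uqcr11, the smallest subunit, had 238, 200.1 and 206 in the tamoxifen samples, against 248, 192 and 179 in the untreated samples, and a fold change of 0.056 ± 0.12 (SE). A dimmer probe set of Uqcr11 had -0.11 ± 0.21 (SE). Uqcrh, the hinge protein near cytochrome c1 and the brightest probe set, had 3868, 3317 and 3440.5 in the tamoxifen samples, against 4181, 3315 and 3299 in the untreated samples, and a fold change of -0.032 ± 0.10 (SE). The groups overlapped for all of these genes.

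Complex IV, cytochrome c oxidase, was represented by 11 genes, none past limma's threshold, with 8 negative log2 fold changes and a median of -0.040. That median depended on tamoxifen sample 1, since it was -0.14 without it, and it was -0.023 without both samples numbered 1. Without tamoxifen sample 1 the medians of complexes I, II, III and the ATP synthase were also lower, at -0.082, -0.073, -0.13 and -0.10. Cox4i1, Cox5a and Cox5b surround the catalytic core, which is itself mitochondrially encoded. Cox4i1, the site at which ATP inhibits the enzyme, had intensities of 1705, 1425 and 1468 in the tamoxifen samples, against 1989.5, 1556 and 1411 in the untreated samples. Cox5a, which binds thyroid hormone metabolites, had 1893, 1437 and 1438 in the tamoxifen samples, against 1920.4, 1687 and 1536 in the untreated samples. Their log2 fold changes were -0.11 ± 0.11 (SE) and -0.12 ± 0.099 (SE), the most negative of the complex, and in both genes tamoxifen and untreated values overlapped. Cox5b, a zinc-binding subunit, had 2476, 2353 and 2159 in the tamoxifen samples, against 2497, 2304 and 2255 in the untreated samples, and a fold change of -0.011 ± 0.065 (SE).

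Cox7a2l, described as a factor that joins complexes III and IV into supercomplexes, had the most positive fold change of the complex. Its protein and the supercomplexes were not measured, and whether it has this function in cells of this strain was not tested. Its intensities were 1850.3, 1868 and 1726 in the tamoxifen samples, against 1702, 1730.1 and 1564 in the untreated samples. After normalisation every tamoxifen sample was above every untreated sample, whereas the deposited values overlapped, since tamoxifen sample 3 was just below untreated sample 2. The log2 fold change was 0.12 ± 0.063 (SE), with a 95% interval of -0.036 to 0.27 and a limma adjusted p of 0.9995. A second, dimmer probe set of the same gene had 1529, 1477 and 1460.4 in the tamoxifen samples, against 1366, 1318 and 1260.2 in the untreated samples. There the groups were apart also before normalisation, with a log2 fold change of 0.17 ± 0.058 (SE), an unadjusted p of 0.025 and a limma adjusted p of 0.855. Both probe sets were thus higher in tamoxifen samples by an amount that did not pass the threshold.

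The remaining genes of the complex had smaller fold changes. Cox7b had 0.039 ± 0.063 (SE) and Cox6b1, which caps the dimer on its outer face and was the brightest probe set, had 0.00373 ± 0.092 (SE). Cox6a1 had -0.087 ± 0.073 (SE), Cox8a had -0.040 ± 0.073 (SE), and Ndufa4 had -0.072 ± 0.093 (SE). Cox7a2 had intensities of 1479, 1099.9 and 998 in the tamoxifen samples, against 1265, 1272 and 1039.6 in the untreated samples, a log2 fold change of -0.026 ± 0.12 (SE). Its promoter is shown because it is one of 2 genes, of the 77 with a window, that held the letters of a FOXO motif. The window is 250 bases before to 50 after the annotated start in RefSeq (build GRCm38.p6, chr9:79759804-79760103, minus strand), with the FOXO letters GTAAACA in capitals, beginning 212 bases before the start.
Cox7a2: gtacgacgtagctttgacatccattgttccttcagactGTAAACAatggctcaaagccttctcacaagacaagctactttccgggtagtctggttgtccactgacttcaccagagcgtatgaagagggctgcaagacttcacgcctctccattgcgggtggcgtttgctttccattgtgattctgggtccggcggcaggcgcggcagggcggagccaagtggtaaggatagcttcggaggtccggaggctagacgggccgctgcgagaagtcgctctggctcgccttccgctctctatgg
The match is a description of the sequence and not evidence of binding, and Cox7a2 had a 95% interval of -0.31 to 0.26 around its fold change.

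The ATP synthase was represented by 17 genes, none past limma's threshold, with 13 negative log2 fold changes and a median of -0.043, or -0.037 without both samples numbered 1. Atp5a1 and Atp5b form the catalytic hexamer, and Atp5c1 is the shaft that turns inside it. Atp5b, the brightest probe set of the complex, had 5679, 5105 and 5228 in the tamoxifen samples, against 5497, 5249 and 5095 in the untreated samples. Its means were 5338 ± 302 in tamoxifen samples and 5280.1 ± 203 in untreated samples (SD, n = 3 each), a log2 fold change of 0.011 ± 0.065 (SE) and a 95% interval of -0.14 to 0.17. Atp5a1 had 3697, 2917 and 3154 in the tamoxifen samples, against 3767, 3220.4 and 3009 in the untreated samples, a fold change of -0.043 ± 0.10 (SE), and Atp5c1 had a fold change of -0.026 ± 0.062 (SE). In these 3 genes sample 1 was the highest in both groups and the groups overlapped.

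The membrane ring that protons turn is built from one protein encoded by Atp5g1, Atp5g2 and Atp5g3, whose mature products are identical. Atp5g3 had the most negative fold change of the complex. Its intensities were 4984, 4710.4 and 4865 in the tamoxifen samples, against 6409, 5159.9 and 5104 in the untreated samples. Every tamoxifen sample was below every untreated sample, and the tamoxifen samples were closer to each other than the untreated samples were. The means were 4853 ± 137 in tamoxifen samples and 5557 ± 738 in untreated samples (SD, n = 3 each), the log2 fold change was -0.19 ± 0.10 (SE), the 95% interval -0.44 to 0.055 and the limma adjusted p 0.9995. Untreated sample 1 set much of this distance, and without it the fold change was -0.078. Atp5g1 had 612, 427 and 442 in the tamoxifen samples, against 700.4, 464 and 434 in the untreated samples, and a fold change of -0.10 ± 0.18 (SE). For Atp5g2 the intensities were 4192, 3637 and 3769.7 in the tamoxifen samples, against 4537, 3958 and 3986 in the untreated samples, with a fold change of -0.10 ± 0.078 (SE). On their brightest probe sets all 3 ring genes had negative fold changes, and for Atp5g1 the sign turned, to 0.081, without untreated sample 1. A dimmer probe set of Atp5g1 had a fold change of 0.013.

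Atp5h and Atp5pb belong to the peripheral stalk that holds the hexamer still, and they had the most positive fold changes, 0.063 ± 0.095 (SE) and 0.059 ± 0.11 (SE). The dimmer probe sets of Atp5h had fold changes of -0.024 and -0.031, and that of Atp5pb had 0.011. Atp5d, of the central stalk, had 861, 611 and 699 in the tamoxifen samples, against 1039, 697 and 613 in the untreated samples, and a fold change of -0.11 ± 0.18 (SE). Atp5j, coupling factor 6 of the peripheral stalk, had 1759.6, 1457 and 1397 in the tamoxifen samples, against 1669.8, 1571 and 1399.7 in the untreated samples, and a fold change of -0.025 ± 0.077 (SE). The first of its promoter windows in RefSeq (build GRCm38.p6, chr16:84834927-84835226, minus strand) is shown because it holds the letters of 3 regulators linked to nuclear genes of the respiratory chain. The capitals mark, in order, the NRF1 letters on both strands (CGCATGC and GCATGCG, overlapping), the YY1 letters ATGGCGG and the ETS letters CCGGAAG, the motif read by GABP.
Atp5j: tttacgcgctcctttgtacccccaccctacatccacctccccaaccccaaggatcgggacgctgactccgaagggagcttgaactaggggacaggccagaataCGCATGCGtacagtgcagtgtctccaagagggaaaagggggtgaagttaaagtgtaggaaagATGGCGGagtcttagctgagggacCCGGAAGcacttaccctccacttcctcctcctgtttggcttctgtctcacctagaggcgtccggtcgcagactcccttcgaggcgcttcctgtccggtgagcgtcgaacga
The second window of Atp5j held none of the 4 motifs searched.

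Assembly factors help to build complexes I and II without staying in them. None of the 11 passed limma's threshold, and 7 had negative log2 fold changes, with a median of -0.046 that was -0.094 without both samples numbered 1. Sdhaf2, which attaches the flavin to Sdha, had the most positive fold change of all 93 genes. Its intensities were 856.9, 749.4 and 711.8 in the tamoxifen samples, against 671.2, 711.6 and 644.4 in the untreated samples, so that tamoxifen sample 3, the lowest of its group, was above untreated sample 2, the highest, by a fraction of a unit. The means were 773 ± 75.3 in tamoxifen samples and 676 ± 33.8 in untreated samples (SD, n = 3 each). The log2 fold change was 0.17 ± 0.064 (SE), with a 95% interval of 0.012 to 0.32, an unadjusted p of 0.038 and a limma adjusted p of 0.927. Leaving out each sample in turn gave fold changes from 0.13 to 0.20. Sdha itself, on which Sdhaf2 acts, had a fold change of -0.026.

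The promoter windows of Sdhaf2 and Ndufaf1 are shown because Sdhaf2 had the most positive fold change and Ndufaf1 is the other gene with FOXO letters. Both are from RefSeq, build GRCm38.p6, Sdhaf2 at chr19:10525160-10525459, minus strand and Ndufaf1 at chr2:119662785-119663084, minus strand. Capitals in Sdhaf2 mark 2 ETS matches (CTTCCGG) and 2 YY1 matches (ATGGCGG and CCGCCAT). Capitals in Ndufaf1 mark the FOXO letters on the other strand (TGTTTAC), beginning 71 bases before the start, and 1 ETS match (CCGGAAG).
Sdhaf2: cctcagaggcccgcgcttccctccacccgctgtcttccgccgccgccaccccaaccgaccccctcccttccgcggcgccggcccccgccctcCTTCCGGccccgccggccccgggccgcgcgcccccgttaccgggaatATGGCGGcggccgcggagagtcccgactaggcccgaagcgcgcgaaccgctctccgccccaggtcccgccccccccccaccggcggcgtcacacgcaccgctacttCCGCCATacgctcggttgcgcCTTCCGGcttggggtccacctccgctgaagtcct
Ndufaf1: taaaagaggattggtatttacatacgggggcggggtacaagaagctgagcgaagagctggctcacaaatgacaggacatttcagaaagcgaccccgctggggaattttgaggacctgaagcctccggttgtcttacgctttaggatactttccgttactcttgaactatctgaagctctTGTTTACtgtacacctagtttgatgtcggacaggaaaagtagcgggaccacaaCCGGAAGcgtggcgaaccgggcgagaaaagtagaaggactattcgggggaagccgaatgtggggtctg
Ndufaf1, a complex I intermediate assembly protein, had 780.1, 579.8 and 565 in the tamoxifen samples, against 737, 662 and 560.5 in the untreated samples, and a log2 fold change of -0.046 ± 0.11 (SE). Cox7a2 and Ndufaf1, the 2 genes with FOXO letters, had negative fold changes with intervals spanning 0, and 64 of all 93 genes were negative. With each array left out, Cox7a2 ranged from -0.14 to 0.066 and Ndufaf1 from -0.15 to 0.021. A link between the letters and the fold changes was not tested.

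Ndufaf4, an early factor of complex I assembly, had 1277, 1191 and 1138 in the tamoxifen samples, against 1319, 1312 and 1217 in the untreated samples. Its normalised values were lower in every tamoxifen sample, with a log2 fold change of -0.099 ± 0.055 (SE) and a 95% interval of -0.23 to 0.034, while the deposited values overlapped. Ndufaf6, also needed for complex I, had the widest interval of the assembly factors, -0.40 to 0.55, around a fold change of 0.074. It was -0.12 without tamoxifen sample 1. Ndufaf2, Ndufaf3, Ndufaf5 and Ndufaf7, which join or modify complex I intermediates, had log2 fold changes of -0.014, 0.070, -0.060 and -0.059. Sdhaf1 and Sdhaf3, which serve the iron-sulphur subunit of complex II, had -0.13 and -0.069. Sdhaf4, which chaperones Sdha, was dim, with 115, 116 and 84.9 in the tamoxifen samples, against 114, 105 and 86.9 in the untreated samples, and a fold change of 0.051. A slightly dimmer probe set of Sdhaf4 had the opposite sign, at -0.17 ± 0.083 (SE).

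**Figure D4:**
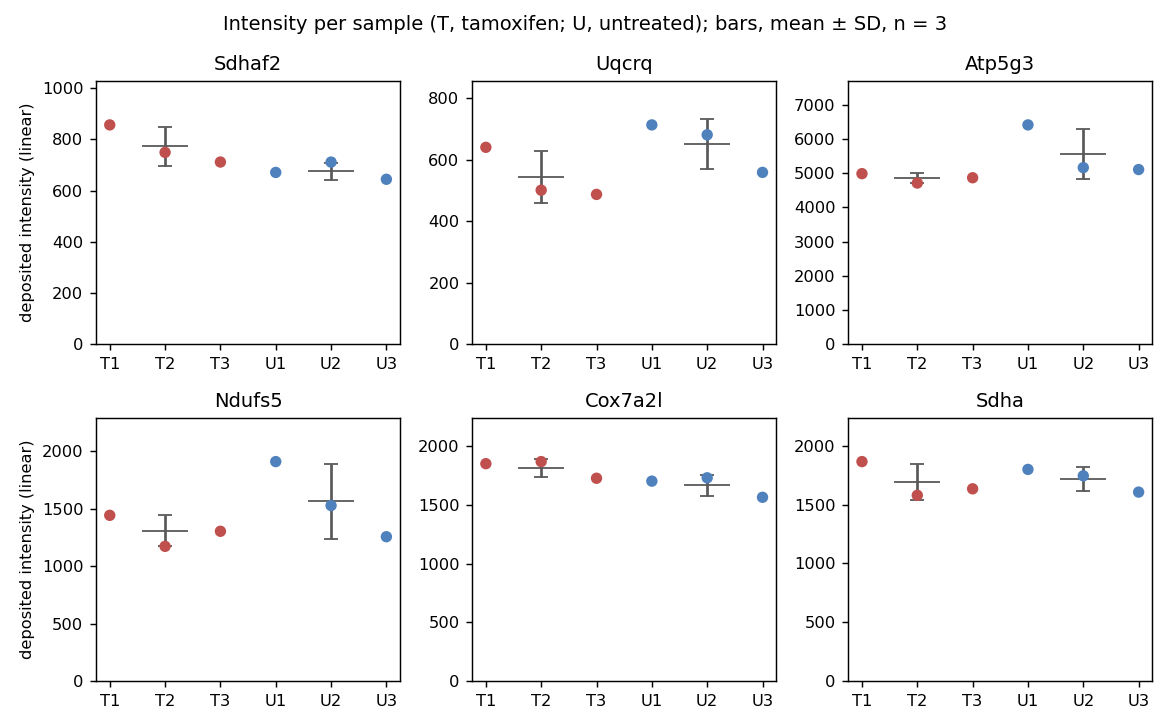
Deposited intensity (linear scale, axis from 0) of 6 genes in tamoxifen samples T1 to T3 and untreated samples U1 to U3, with the mean and SD of each group as bars (n = 3). Tamoxifen and untreated points are apart for Sdhaf2 (tamoxifen 856.9, 749.4 and 711.8, untreated 671.2, 711.6 and 644.4) and Atp5g3 (tamoxifen 4984, 4710.4 and 4865, untreated 6409, 5159.9 and 5104) and overlap for Uqcrq, Ndufs5, Cox7a2l and Sdha.

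Several subunits have isoforms known from muscle, heart, lung or testis. The array measured 8 genes grouped with them, including Ndufa4l2, which is described below by hypoxia and not by tissue. Their intensities lay between 13.9 and 204 over all samples, and 3 of 8 had means at or above the median of probe set means, namely Cox4i2, Cox6a2 and Cox7a1. None passed limma's threshold, with log2 fold changes from -0.076 to 0.056, which the added 16 understates at such intensities. Cox4i2, the oxygen-responsive isoform of lung, had 152, 153 and 154 in the tamoxifen samples, against 160.4, 133 and 179 in the untreated samples, and a fold change of -0.038 ± 0.10 (SE). Cox6a2, the muscle and heart isoform, had 162, 158 and 187 in the tamoxifen samples, against 166, 159 and 204 in the untreated samples, and a fold change of -0.062 ± 0.11 (SE). Cox7a1, also of muscle and heart, had 159, 179.6 and 165 in the tamoxifen samples, against 173, 178 and 165 in the untreated samples, and a fold change of -0.034 ± 0.067 (SE). Their tamoxifen and untreated values overlapped.

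The other 5 were below that median. Cox6b2 and Cox8c, isoforms of testis, had fold changes of -0.062 and -0.057. Cox7b2, also of testis, lay between 13.9 and 18.6 in the 6 samples, below the lowest lower quartile of the arrays (43.3). Cox8b, a muscle and heart isoform, had a fold change of -0.076. Ndufa4l2, the hypoxia-inducible relative of Ndufa4, had 83.7, 81.6 and 90.2 in the tamoxifen samples, against 94.9, 69.4 and 84.2 in the untreated samples, and a fold change of 0.056 ± 0.11 (SE). The ubiquitous partners Cox4i1, Cox6a1, Cox6b1, Cox7a2, Cox7b, Cox8a and Ndufa4 all had means above the median, although levels of different probe sets were not set against each other. Only 1 of these 8 isoforms was highest in sample 1 of both groups, Cox6b2.

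A further check used the 18 genes that had several probe sets. For 9 of them the probe sets differed in the sign of the fold change. Among these were Atp5g1, Atp5h, Cox5b, Cox7b, Sdhaf4 and Uqcr11, described above. Ndufab1, the mitochondrial acyl carrier protein that also sits in complex I, had -0.13 on its brighter and 0.14 on its dimmer probe set. Uqcrb had 3 probe sets, all with positive fold changes. Atp5l had 5 and Atp5g2 had 3, all with negative fold changes. Whether these probe sets also read processed copies of the genes elsewhere in the genome was not analysed here.

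The genes around the respiratory chain were described from lists, and none of their genes passed limma's threshold in either direction. The 13 mitochondrially encoded subunits were not analysed here. The mobile carriers and their neighbours, such as cytochrome c and the ADP/ATP carriers, had 12 genes measured and a median log2 fold change of -0.043. One of them, Usmg5, is an older name of Atp5md, which is also counted with the ATP synthase. Cyc1, cytochrome c1 of complex III, had a fold change of -0.14 ± 0.18 (SE), and Etfa, which brings electrons from fatty acid oxidation, had -0.13 ± 0.094 (SE). Of 29 factors for assembly and cofactor insertion, 27 were measured, with a median of 0.016 and 15 positive values. Ttc19, which keeps complex III in working order, had the most positive value and the lowest limma adjusted p of that list, 0.22 ± 0.056 (SE) with an adjusted p of 0.572, and was higher in every tamoxifen sample. The most negative was Bcs1l, the chaperone that inserts the Rieske protein, at -0.27 ± 0.12 (SE), followed by Atpaf2, which assembles the catalytic part of the ATP synthase, at -0.24 ± 0.076 (SE).

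Coenzyme Q synthesis had 11 of 12 genes measured and a median of -0.068. Its kinase-like member Coq8a had 0.24 ± 0.059 (SE) and Coq7, which hydroxylates the precursor, had -0.23 ± 0.13 (SE). In the tricarboxylic acid cycle, which supplies NADH and succinate, 12 of 13 genes were measured with a median of -0.052. Mdh2 had -0.16 ± 0.15 (SE), and 0.019 without untreated sample 1, while Idh3b had 0.13 ± 0.084 (SE). The 16 regulators of mitochondrial biogenesis had a median of -0.044. Tfb1m, a methyltransferase of the mitochondrial ribosomal RNA, had -0.29 ± 0.096 (SE), and Pprc1, a coactivator of NRF1, had -0.18 ± 0.11 (SE). In the mitochondrial ribosome, 52 of 77 fold changes were negative, with a median of -0.035. Mrpl20 and Mrpl23, of its large subunit, had -0.28 ± 0.18 (SE) and -0.28 ± 0.13 (SE). The respiratory chain genes, with a median of -0.040, lay within the range of these lists.

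The promoters of the respiratory chain genes were searched for letters of 4 regulators. NRF1, a regulator of nuclear genes for mitochondria, was searched as GCATGCG, whose other strand overlaps with it in a palindrome. The ETS family, which includes GABP, was searched as CCGGAAG, the zinc finger factor YY1 as ATGGCGG and FOXO factors as GTAAACA. Each was read on both strands. RefSeq windows of 300 bases were matched for 77 of 93 genes, giving 82 windows. NRF1 letters were in 15.9% of them, against 4.78% of the 19115 windows of all genes on the array. ETS letters were in 25.6% against 12.1%, and YY1 letters in 15.9% against 5.47%. FOXO letters were in 2.44%, 2 windows, against 3.01%. Over all 32851 promoters the shares were 3.58%, 8.86%, 4.05% and 3.65% for NRF1, ETS, YY1 and FOXO letters. The median GC content of the windows was 58.5% for the respiratory chain genes and 57.7% for all genes on the array.

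By complex the windows are few, and no difference between complexes was tested. YY1 letters were in 9 of 33 windows of complex I (8 genes), 0 of 3 of complex II, 0 of 5 of complex III, 0 of 9 of complex IV, 2 of 18 of the ATP synthase and 2 of 10 of the assembly factors. ETS letters were in 4 of 33, 2 of 3, 2 of 5, 3 of 9, 6 of 18 and 4 of 10 windows of the same groups. The tissue-restricted isoforms had 4 windows and none of the 4 motifs. In complex I the YY1 letters lay after the annotated start in Ndufa9, Ndufb5, Ndufs4, Ndufs6 and Ndufs7, and before it in Ndufa1, Ndufa5 and Ndufa7. After the start, ATGGCGG can also be the beginning of the coding sequence, and the part of this in the YY1 share was not tested. The windows of the mitochondrial ribosome genes had NRF1 letters in 10.8%, ETS letters in 33.8% and YY1 letters in 16.2%. Among the genes of these regulators themselves, the log2 fold change of Nrf1 was -0.16 ± 0.058 (SE) and its limma adjusted p 0.882. Of the subunits of GABP, Gabpb1 had -0.17 ± 0.057 (SE) with a limma adjusted p of 0.805 and Gabpa had 0.012 ± 0.069 (SE), while Yy1 had 0.10 ± 0.067 (SE). Of the 16 biogenesis regulators, 3 had an unadjusted p under 0.05 (Nrf1, Gabpb1 and Tfb1m), beside 5.11% of all probe sets, and 6 of 16 had positive fold changes. Letters that are absent from a window say nothing about the factor, and no binding was measured.

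**Figure D5:**
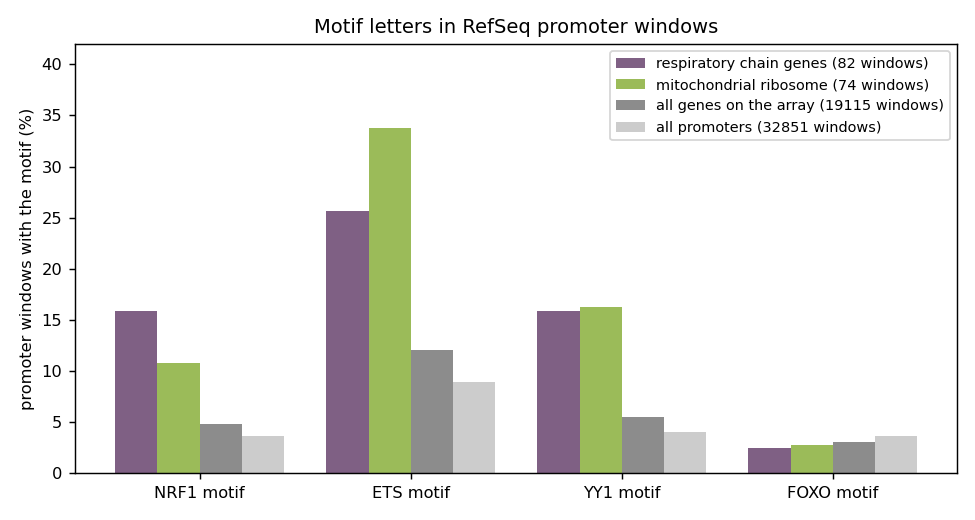
Percentage of RefSeq promoter windows (250 bases before to 50 after the start) that hold the letters of 4 motifs on either strand, for respiratory chain genes, mitochondrial ribosome genes, all genes on the array and all promoters. NRF1, ETS and YY1 letters were in 15.9%, 25.6% and 15.9% of respiratory chain windows, and FOXO letters in 2.44%.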

How the data were processed

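RNA of 3 tamoxifen and 3 untreated samples of one transformed pro-B cell line was measured on microarrays. The labels' protocols name TRIZOL extraction, RNeasy purification and biotinylated cRNA made with NuGen reagents. The authors deposited linear intensity values, 1 per probe set and array. Their background correction, summarisation, normalisation and genome build are not given in the sources used here. Groups and replicate numbers came from the sample titles.

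Values became log2(intensity + 16), a scale that understates changes of dim genes, and were quantile normalised over the 6 arrays. The fit used limma 3.58.1 (lmFit, eBayes, two-sided) under R 4.3.3, and p-values were adjusted by Benjamini and Hochberg's method over 34760 probe sets with a threshold of 0.05. Printed intensities are the deposited ones, and overlap of groups was judged on normalised values unless stated. A platform table gave 1 gene symbol to 21640 probe sets and several to 1321, while 11799 were not in it. Only probe sets with 1 symbol were named, and 6 that pair a respiratory chain symbol with others were left out. Tables and figures were made with Python 3.11.15, pandas 2.3.3, numpy 2.4.6 and matplotlib 3.10.9. The quantile normalisation and the limma fit were run on simulated data, with noise drawn separately for each probe set and array. Those data did not hold the shared height of sample 1.

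The genes and lists were chosen with earlier results of these data known. Genes were named by a rule. It took those past the threshold, the 2 most positive and 2 most negative per complex among those at or above the median of probe set means, and the brightest of each complex. It further took catalytic cores, isoform pairs, assembly factors and 2 genes from each other list. Atp5j, Ndufab1, Atp5l, Ttc19, Nrf1, Gabpb1, Gabpa and Yy1 were named outside the rule, after their values were seen. Alternatives were other normalisations, pseudocounts of 1 and 64, a filter on dim probe sets, averaged probe sets, an intensity trend, the replicate number as a block and each array left out in turn.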

Additional observations from a re-analysis of the deposited data

How the results depend on the processing

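Under all 16 alternatives 0 of the 93 genes passed limma's threshold, 0 to 4 had an unadjusted p under 0.05, and the lowest adjusted p was 0.476. Of these, leaving out both samples numbered 1 was chosen after seeing the data. The median of all genes on the array moved by less than 0.1 on the log2 scale throughout. Over the array, the number of probe sets called was 20, against 3 with arrays scaled to a common median, 46 with dim probe sets left out, 73 of 19937 genes with probe sets averaged, 12 with an intensity trend, 12 with no further normalisation, 11 with a pseudocount of 1, 0 without both samples numbered 1, and 0 to 6 with each array left out in turn. With the replicate number as a block, 0 genes and 0 probe sets passed, medians were those of the fit without it (complex IV -0.040) and the lowest adjusted p of the 93 genes was 0.476. The labels do not say that numbers pair samples, and deviations of same-numbered samples from their group means correlated at 0.26, 0.055 and 0.30 over all probe sets and at 0.31, 0.33 and 0.40 over the 93 genes. Over all probe sets untreated sample 2 correlated best with tamoxifen sample 1 (0.10), and over the 93 genes with tamoxifen sample 2, while tamoxifen sample 2 correlated best with untreated sample 3 in both (0.25 and 0.39). The block changed the call of none of the 93 genes. The median of complex IV ranged from -0.14 to 0.00936 with each array left out, its lowest value coming without tamoxifen sample 1. With arrays left out the median of all 93 genes ranged from -0.085 to 0.030. Single log2 fold changes turned sign, none of them past the threshold, and the cause was not tested. Values are given for the genes the text names by its rule, other lists included. Without both samples numbered 1, the sign turned for 21 of 93 genes, the named genes being Uqcrh 0.043, Atp5pb -0.058, Atp5d 0.00237, Ndufs7 0.019, Ndufv1 0.058, Sdhc 0.00123, Cox5b 0.00485, Cox7a1 0.000486, Cox8a 0.00449, Cox8c 0.000652, Ndufaf6 -0.11 and Mdh2 0.00733. With arrays scaled to a common median, the sign turned for 11 of 93 genes, the named genes being Ndufs1 0.025, Ndufv1 0.010, Sdhc 0.013, Uqcrfs1 0.00327, Cox5b 0.0019, Cox7a2 0.00219 and Ndufaf2 0.024. With probe sets of a gene averaged, the sign turned for 5 of 93 genes, the named genes being Uqcr11 -0.025, Cox5b 0.011 and Sdhaf4 -0.060. With no further normalisation, the sign turned for 4 of 93 genes, the named genes being Ndufs1 0.00817 and Ndufaf2 0.00733. With cyclic loess, the sign turned for 5 of 93 genes, the named gene being Cox6b1 -0.000668. Leaving out each array in turn, 63 of the 93 genes turned sign at least once, and named genes that did ranged as follows: Ndufb7 -0.27 to 0.043, Ndufb11 -0.076 to 0.00869, Sdhb -0.088 to 0.21, Sdha -0.057 to 0.00405, Uqcr11 -0.026 to 0.19, Uqcrc1 -0.25 to 0.088, Uqcrh -0.10 to 0.074, Cox4i1 -0.17 to 0.00936, Cox6b1 -0.051 to 0.080 and Atp5h -0.026 to 0.12. Further ranges were Atp5pb -0.048 to 0.13, Atp5d -0.22 to 0.087, Atp5b -0.012 to 0.050, Ndufs1 -0.056 to 0.036, Ndufs7 -0.14 to 0.049, Ndufs8 -0.080 to 0.13, Ndufv1 -0.094 to 0.11, Sdhc -0.070 to 0.017, Uqcrfs1 -0.13 to 0.032 and Cox5b -0.039 to 0.024. Further ranges were Atp5a1 -0.099 to 0.046, Cox4i2 -0.14 to 0.053, Cox6a2 -0.13 to 0.047, Cox7a2 -0.14 to 0.066, Cox8a -0.069 to 0.013, Ndufa4 -0.14 to 0.00154, Ndufa4l2 -0.038 to 0.16, Atp5g1 -0.22 to 0.081, Ndufaf1 -0.15 to 0.021 and Ndufaf2 -0.10 to 0.064. Further ranges were Ndufaf3 -0.011 to 0.16, Ndufaf5 -0.20 to 0.016, Ndufaf6 -0.12 to 0.20, Sdhaf3 -0.20 to 0.023, Sdhaf4 -0.065 to 0.19, Cyc1 -0.30 to 0.015 and Mdh2 -0.25 to 0.019.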

Other observations

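A pair of further lists, chosen after values were seen, give the place of sample 1 for other abundant complexes. Cytosolic ribosomal proteins, which build the ribosome outside mitochondria, had sample 1 highest in both groups for 21 of 61 genes (34.4%). These genes were taken by symbol, which includes some named as ribosomal-protein-like, and 58 of the 61 reached the median of probe set means. Their median deviations were 0.043, -0.018 and 0.00387 in the tamoxifen samples, against 0.039, -0.033 and -0.030 in the untreated samples, and their median log2 fold change was 0.019. Proteasome subunits, which form the main protease of cytosol and nucleus, had 32 of 39 genes (82.1%). Their median deviations were 0.12, -0.089 and -0.082 in the tamoxifen samples, against 0.16, -0.053 and -0.045 in the untreated samples, and their median log2 fold change was -0.050. None of the 61 ribosomal and 39 proteasome genes passed limma's threshold.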
